A study of Mus musculus with 6 samples.

Results

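The genes followed here, across cells with and without IKKa, act in extracellular proteolysis: the matrix metalloproteinases Mmp2, Mmp3, Mmp9, Mmp10, Mmp13 and Mmp14, the tissue inhibitors Timp1, Timp2 and Timp3, and the related protease Adamts1, 10 genes in all. All probes whose annotation carries one of these symbols were taken, which gave 16 probes for 10 genes, out of 46120 targets for 17658 named genes on the array. Of these, 10 probes for 8 genes were above background on at least 2 of 6 arrays and were tested. The cells were mouse embryonic fibroblasts, connective tissue cells taken from embryos and grown in medium with fetal calf serum to just under confluence. Total RNA was labelled with biotin and put on Illumina Mouse-6 bead arrays, 1 array per sample. There were 3 groups of 2 arrays: wild-type cells, IKKa-/- cells (called IKKa-null here) and cells labelled IKKa+/+reconstituted (called reconstituted). The labels name no other treatment, and do not say how the cells were immortalised, how IKKa was put back, or whether 2 arrays of a group came from separate cultures. The p-values therefore measure the spread between these arrays, which may be technical.

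Matrix metalloproteinases are zinc-dependent enzymes that cut collagens, laminins and other proteins outside the cell. Most are secreted as inactive proenzymes, and the tissue inhibitors of metalloproteinases (TIMPs) bind the active site. In fibroblasts the membrane-bound enzyme MMP14 and the inhibitor TIMP2 together form the surface complex on which pro-MMP2 is activated. The kinase IKKa, encoded by Chuk, acts in NF-kB signalling, with a role of its own in processing the Nfkb2 product, and the labels describe the data as expression regulated by IKKa. Several metalloproteinase genes are known targets of AP-1 and NF-kB transcription factors.

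The groups differed in more than their label. The SV40 large T target gave an intensity of 4431.6 to 6076.1 in wild-type cells, was at background in IKKa-null cells and gave 203.2 to 212.3 in reconstituted cells. The neomycin resistance target was at background in wild-type cells and at 2230.7 to 3458.1 in the other groups, and the Moloney sarcoma virus LTR target was at 3260.7 to 3524.9 in IKKa-null and 219.5 to 292 in reconstituted cells. Xist, which is made from the inactive X, was above background in wild-type cells only, and the Y-linked Eif2s3y in the other groups only. In both comparisons with wild-type cells these features cannot be told apart from the labelled group. Between reconstituted and IKKa-null cells that holds for the SV40 and LTR targets, while Xist was at background in both and Eif2s3y and the neomycin target were above background in both. Since no probe carries the symbol Chuk, the deletion could not be checked on these arrays. Of 11 fibroblast markers, 9 were above background on at least 2 of 6 arrays, and Lum and Fap were at background on all. The summed intensity of the list over background was 3942 to 4343 in wild-type, 6090 to 6458 in IKKa-null and 13990 to 18080 in reconstituted cells. A few bright probes set most of this sum. Raw intensities of S100a4 were 4618.2 and 5233.9 in IKKa-null cells. In reconstituted cells those of Dcn were 6583.3 and 5529.1, and those of Thy1 4580.2 and 3344. The tested markers did not move as one: in IKKa-null against wild-type cells S100a4 rose 3.07-fold (adjusted p = 0.0111), a call lost without either IKKa-null array, Pdgfra fell 4.89-fold (adjusted p = 3e-04) and Col1a1 fell 2.19-fold (adjusted p = 0.00813), a call lost without IKKa-null replicate 2. Over all named genes 13.6% were called higher and 15.4% lower in that comparison. Reconstituted against IKKa-null cells had 4 of 9 higher and none lower, where 6.89% of all named genes were called higher and 7.41% lower. The 4 were Thy1 (39.6-fold, adjusted p = 0.000432), Pdgfra (18.5-fold, adjusted p = 7.4e-05), Dcn, and Col3a1 (4.24-fold, adjusted p = 0.0158), the last lost when IKKa-null replicate 2 or reconstituted replicate 2 was left out. These 4 and S100a4 were higher in reconstituted against wild-type cells too, where 15.6% of all named genes were called higher. Col1a2, Pdgfrb and Vim passed in no comparison. Vim was above background on the IKKa-null arrays only, and its intensities were 128.9 to 180.8 over all 6 arrays. The log2 change of Thy1, 5.31, was 5.9 and 4.72 with 1 or the other IKKa-null array left out. Without background correction the Pdgfra changes were smaller, -1.46 in place of -2.29 and 3.15 in place of 4.21, and that of Thy1 was 4.37. Among markers of other cell types, Ptprc, Adgre1, Pecam1, Cdh5, Cdh1 and Myh11 were at background on all 6 arrays.

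Upstream sequences are shown for the chromosome 9 enzymes among the members and for 3 members that passed a test, because their motifs differ. The 250 bases before the annotated start are from RefSeq (GRCm38.p6), written in the direction of transcription, and 8 of the 10 members had an entry. Mmp2 and Mmp9 had none. In the following windows the capitals mark the AP-1 motif TGANTCA, searched on both strands, at chr9:7445572-7445821 (+ strand), chr9:7502092-7502341 (+ strand) and chr9:7272264-7272513 (+ strand).
Mmp3: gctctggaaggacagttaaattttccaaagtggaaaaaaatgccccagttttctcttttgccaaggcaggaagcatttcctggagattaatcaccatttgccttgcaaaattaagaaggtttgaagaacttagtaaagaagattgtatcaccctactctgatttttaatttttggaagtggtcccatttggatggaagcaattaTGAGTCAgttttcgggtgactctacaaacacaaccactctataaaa
Mmp10: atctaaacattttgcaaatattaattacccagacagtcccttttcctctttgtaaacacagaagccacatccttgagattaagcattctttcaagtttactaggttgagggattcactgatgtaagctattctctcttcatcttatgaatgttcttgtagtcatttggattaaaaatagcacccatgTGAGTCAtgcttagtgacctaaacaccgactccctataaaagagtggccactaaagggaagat
Mmp13: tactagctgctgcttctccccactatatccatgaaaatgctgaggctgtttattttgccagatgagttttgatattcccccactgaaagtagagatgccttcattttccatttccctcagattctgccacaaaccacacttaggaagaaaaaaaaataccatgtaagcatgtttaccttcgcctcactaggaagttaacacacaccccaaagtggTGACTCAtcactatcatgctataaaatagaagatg
In the next windows the capitals mark the GC box GGGCGG or its reverse complement, at chr14:54431348-54431597 (+ strand), chr11:118355412-118355661 (- strand) and chr10:86300162-86300411 (+ strand).
Mmp14: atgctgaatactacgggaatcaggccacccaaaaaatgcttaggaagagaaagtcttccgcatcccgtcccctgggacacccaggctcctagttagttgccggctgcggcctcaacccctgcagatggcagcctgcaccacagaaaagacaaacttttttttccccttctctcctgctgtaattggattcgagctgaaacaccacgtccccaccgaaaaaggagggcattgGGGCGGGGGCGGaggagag
Timp2: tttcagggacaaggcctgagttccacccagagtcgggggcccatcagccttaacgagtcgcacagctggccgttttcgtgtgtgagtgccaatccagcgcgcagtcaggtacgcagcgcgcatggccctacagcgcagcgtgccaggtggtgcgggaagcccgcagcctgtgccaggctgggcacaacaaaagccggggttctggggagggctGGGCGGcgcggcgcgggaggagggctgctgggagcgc
Timp3: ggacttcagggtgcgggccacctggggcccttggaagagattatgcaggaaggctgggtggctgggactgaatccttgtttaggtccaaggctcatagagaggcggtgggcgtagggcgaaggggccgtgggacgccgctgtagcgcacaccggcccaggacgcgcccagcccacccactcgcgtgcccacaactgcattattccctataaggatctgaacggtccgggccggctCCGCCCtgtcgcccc
The AP-1 motif began 46 bases before the start of Mmp3, 63 before that of Mmp10 and 35 before that of Mmp13. It was found in these 3 of the 8 members and in 6.75% of 32851 windows of the same length. A TATA box (TATAAA, both strands) was present in the same 3 windows and in that of Adamts1, against 12.37% of all windows. The windows of Mmp14, Timp1, Timp2, Timp3 and Adamts1 held a GC box, which was found in 32.74% of all windows. The kappaB consensus was in none of the 8 member windows, against 7.25% of all. The 3 genes with an AP-1 match lay near or under the detection limit of the arrays, as described below. These matches describe letters in these windows only.

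In IKKa-null cells 4 of the members were higher: against wild-type cells, Mmp2, Mmp14, Timp2 and Timp3 passed the test as higher, none was lower, and 4 of 8 tested genes did not pass. Over all 7407 named genes, 29.0% were called in this comparison and 13.6% were called higher and 15.4% lower. A gene with several probes was counted by its brightest one, and a call is an adjusted p under 0.05 in limma, with Benjamini-Hochberg adjustment over all 11658 tested probes. The median log2 change of the 8 genes was 0.67, beside -0.12 over all named genes. With IKKa-null replicate 1 left out, or with wild-type replicate 2 left out, the count of 4 fell to 2.

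In reconstituted against IKKa-null cells, 2 of the 8 genes passed the test, Timp3 and Mmp13, both lower. In this comparison 14.3% of all named genes were called, 6.89% higher and 7.41% lower. The median log2 change of the 8 genes was 0.14, beside -0.02 over all named genes. With no background correction and in the series matrix the count was also 2, but of 1 higher (Mmp2) and 1 lower (Timp3), since Mmp13 lost its call there. The count fell to 0 without either IKKa-null array, and to 1 without reconstituted replicate 1, with median scaling, with no filter on dim probes, or with only probes above background on all 6 arrays. Reconstituted against wild-type cells gave 3 genes higher (Mmp2, Mmp14 and Timp2) and 1 lower (Mmp13). Here 36.9% of all named genes were called, 15.6% higher and 21.3% lower. The median was 0.39, beside -0.14 over all named genes. Each pair of comparisons shares a group of arrays, so they are not independent of each other.

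**Figure D1:**
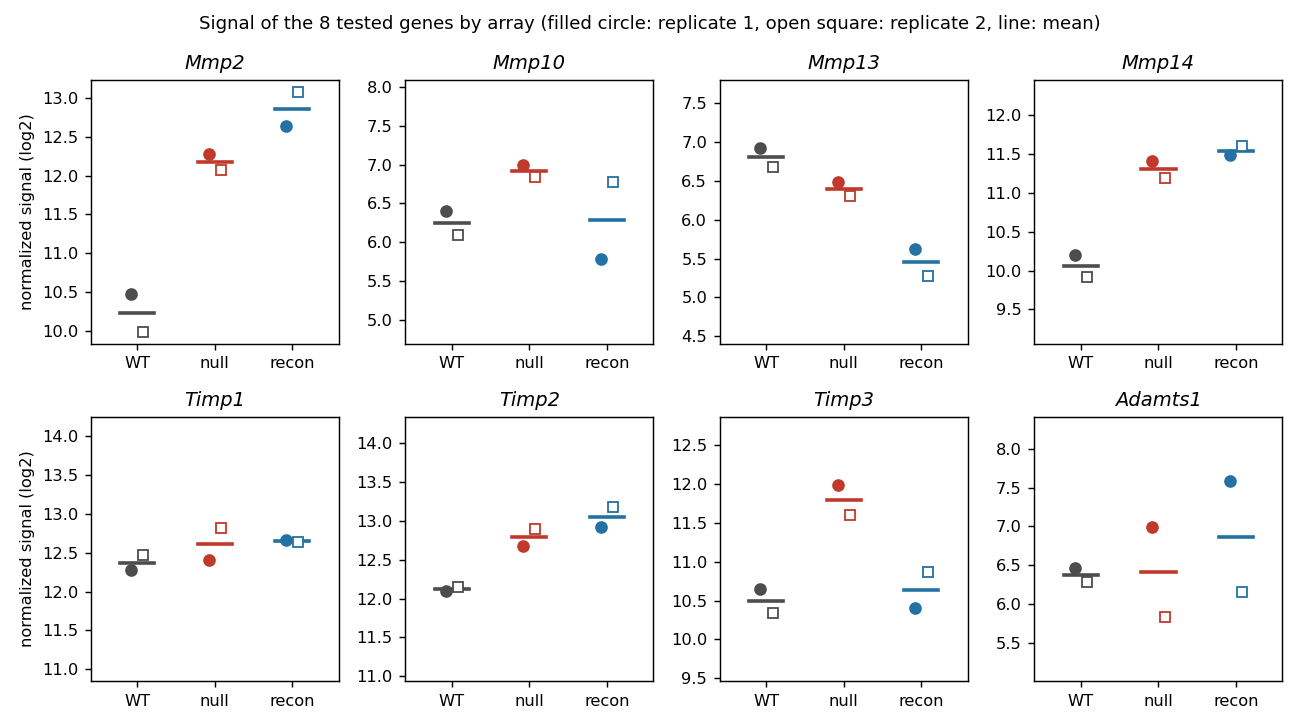
Normalized log2 signal (vertical axis) of the 8 tested genes on each of the 6 arrays, by group, using the brightest probe of each gene; circles are replicate 1, squares replicate 2, and lines the mean of 2 arrays. All panels span the same number of log2 units around different centres; Mmp2 and Mmp14 are lowest in both wild-type arrays, Timp3 is highest in both IKKa-null arrays, and the replicates of Adamts1 lie apart.

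The gelatinase Mmp2, which degrades denatured collagen and basement membrane collagen, had the widest range of group means among the tested members. Its normalized log2 signal was 10.48 and 9.99 on the wild-type arrays, 12.28 and 12.07 on the IKKa-null arrays, and 12.64 and 13.08 on the reconstituted arrays. Before normalization the intensities were 1367.5 and 1199.4, 5361.2 and 4910.3, and 7440.2 and 6750.2 in the same order. No array of one group overlapped with an array of another, and the order was wild-type, IKKa-null, reconstituted. Mmp2 rose 3.85-fold in IKKa-null against wild-type cells (log2 change 1.94, SE 0.243, adjusted p = 0.00222). In reconstituted cells it was 6.18-fold above wild type (log2 change 2.63, SE 0.243, adjusted p = 0.000612).

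The further difference between reconstituted and IKKa-null cells, 0.68 in log2 with a 95% interval of 0.11 to 1.26, did not pass (adjusted p = 0.118). It did pass without background correction and in the deposited series matrix (log2 change 0.67 in both). Mmp2 was thus no closer to its wild-type level in the reconstituted cells. Both of its calls held under all 14 alternative settings, with log2 changes between 1.7 and 2.19 against wild type in IKKa-null cells and between 2.38 and 2.87 in reconstituted cells. The other gelatinase, Mmp9, which is known as an NF-kB target in inflamed tissue, had a single probe that was not above background on any of the 6 arrays. Its intensities lay between 98.9 and 160.1, so no level or fold can be given.

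Mmp14, the membrane-type enzyme that cuts fibrillar collagen and activates pro-MMP2, followed a similar order. Its brighter probe gave a normalized log2 signal of 10.20 and 9.92 in wild-type, 11.41 and 11.20 in IKKa-null, and 11.49 and 11.60 in reconstituted cells. Both wild-type arrays lay well below all others, and the IKKa-null and reconstituted arrays did not overlap but lay close together. Mmp14 rose 2.37-fold in IKKa-null against wild-type cells (log2 change 1.25, SE 0.187, adjusted p = 0.0042). The rise in reconstituted against wild-type cells was 2.8-fold (log2 change 1.49, SE 0.187, adjusted p = 0.00198). Between reconstituted and IKKa-null cells the difference was 0.24, with a 95% interval of -0.20 to 0.68 (adjusted p = 0.443), and it was -0.01 with median scaling, or 0.16 relative to the median of all probes under that scaling, against 0.25 in the reported fit. Both calls held under all 14 alternative settings. A second Mmp14 probe, which targets another transcript, was at background on all 6 arrays, with intensities of 89.6 to 111.3.

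**Figure D2:**
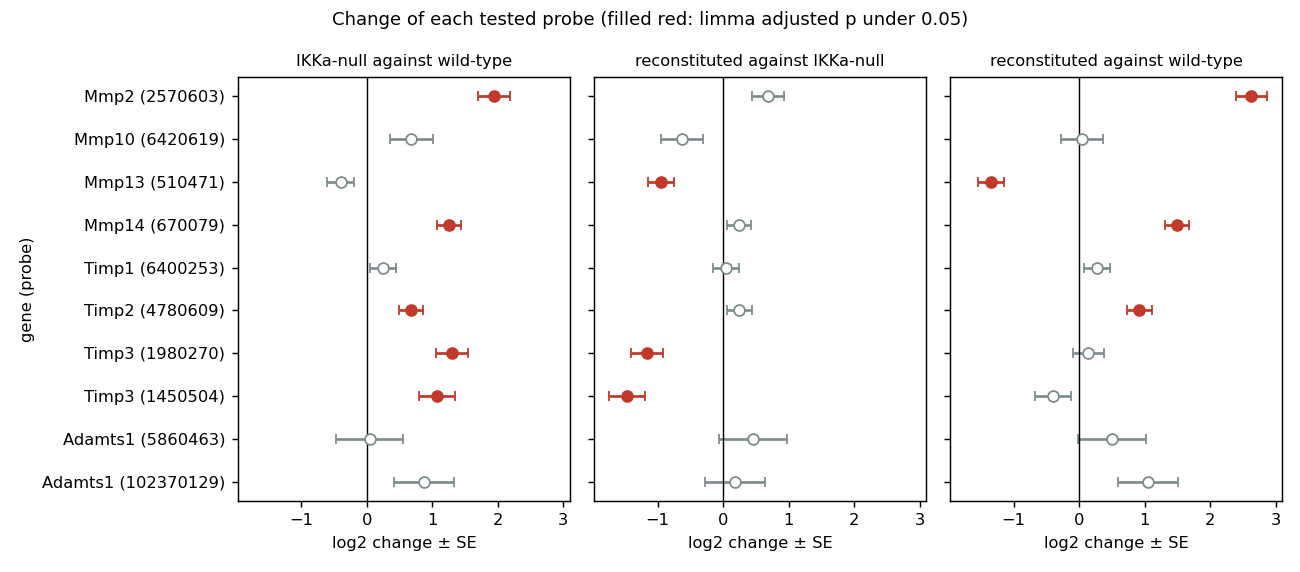
Log2 change (horizontal axis) of the 10 tested probes in the 3 comparisons, with bars of 1 SE from the limma fit and red filled points where the adjusted p is under 0.05. Mmp2 and Mmp14 lie to the right of 0 in both comparisons with wild type, and both Timp3 probes lie to the right in the left panel and to the left in the middle one.

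The secreted enzymes Mmp3, Mmp10 and Mmp13 lie in a cluster of metalloproteinase genes on chromosome 9. The collagenase Mmp13, which cleaves fibrillar collagen and is known from cartilage and bone, was lowest in reconstituted cells. Its brighter probe gave a log2 signal of 6.93 and 6.68 in wild-type and 6.49 and 6.31 in IKKa-null cells, above background on all 4 of these arrays. It gave 5.63 and 5.28 in reconstituted cells, where it was at background on both arrays, and no 2 groups overlapped. A fold against a group at background is given as a bound, with the dim value raised on each array to its lowest signal that passed as above background. Mmp13 fell at least 1.51-fold in reconstituted against wild-type cells (log2 change -1.35, SE 0.203, adjusted p = 0.00365), and this call held under the 13 alternatives in which the probe was tested, with a log2 change of -0.62 with no background correction and in the series matrix. It fell at least 1.14-fold against IKKa-null cells (log2 change -0.95, SE 0.203, adjusted p = 0.0255), a call kept in 7 of 13 alternatives. It did not pass without either IKKa-null array or without reconstituted replicate 2, with median scaling, and with no background correction or the series matrix (log2 change -0.41 in both). IKKa-null and wild-type cells differed by -0.40, with a 95% interval of -0.88 to 0.08 (adjusted p = 0.177). A second Mmp13 probe was at background on all 6 arrays.

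Mmp10, a stromelysin that cuts proteoglycans and other matrix proteins, gave a log2 signal of 6.40 and 6.09 in wild-type, 7.0 and 6.84 in IKKa-null, and 5.79 and 6.78 in reconstituted cells. It was above background on both IKKa-null arrays but on only 1 array of each other group, and the reconstituted arrays lay apart. None of its comparisons passed the test. The largest, IKKa-null against wild type, was 0.68 with a 95% interval of -0.09 to 1.44 (adjusted p = 0.158). It did pass when either reconstituted array was left out, with the same log2 change of 0.68. For this comparison these settings give the same fit and count as 1 result. Reconstituted against IKKa-null passed without reconstituted replicate 2 (-1.13). Mmp3, the other stromelysin, had 2 probes, of which one was above background only in wild-type replicate 1 and the other on no array. The intensities of the brighter one were 160.1 and 153.3 in wild-type, 145.7 and 162.5 in IKKa-null, and 125.5 and 160.4 in reconstituted cells, which overlap. No difference in Mmp3 was detectable at this signal.

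**Figure D3:**
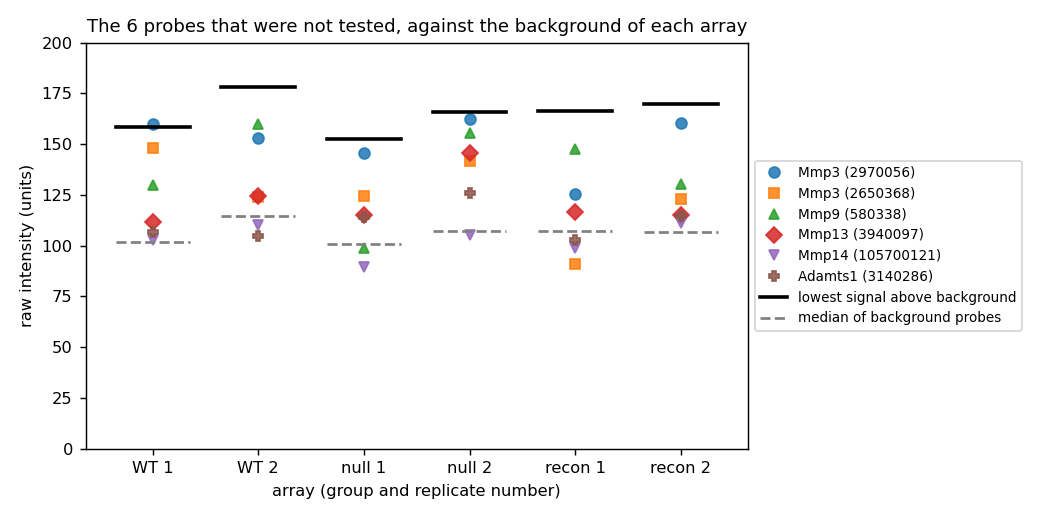
Raw intensity (vertical axis, linear) of the 6 member probes that were not tested, on each of the 6 arrays, with the lowest signal above background (solid line) and the median of the background probes (dashed line) of each array. Intensities lie between 89.6 and 162.5, and 1 of the 36 values, the brighter Mmp3 probe in wild-type replicate 1, is above the solid line.

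The chromosome 9 cluster was followed past its end because its neighbours changed strongly. In the RefSeq order from Mmp13 to Yap1 there were 14 coding genes, 10 of them metalloproteinases, of which 9 were on the array and 2, Mmp13 and Mmp10, were tested. An AP-1 motif was found upstream of 8 of these 10 genes. Just beyond Mmp7 and Tmem123, the apoptosis inhibitors Birc2 and Birc3 and the transcriptional coactivator Yap1 rose in IKKa-null cells. Against wild type Birc2 was 12.8-fold higher (log2 change 3.68, adjusted p = 0.000288) and Yap1 8.73-fold higher (3.13, adjusted p = 0.000148). Birc3, at background on both wild-type arrays, was at least 3.52-fold higher (adjusted p = 0.000147). It was above background on the IKKa-null arrays only, and met the filter for testing through them. In reconstituted against wild-type cells Birc2 differed by -0.01 and Yap1 by -0.33, neither passing, and Birc3 was at background in both groups. These 3 genes were chosen after their values were seen. The 7 untested metalloproteinase genes of the cluster were at background in IKKa-null cells, where a change in them could not be measured. Of the tested ones, Mmp10 differed by 0.68 and Mmp13 by -0.40 in IKKa-null against wild-type cells, neither passing. In reconstituted against wild-type cells they differed by 0.04 and -1.35, the second passing. Whether the cluster changed together with these neighbours was not tested.

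**Figure D4:**
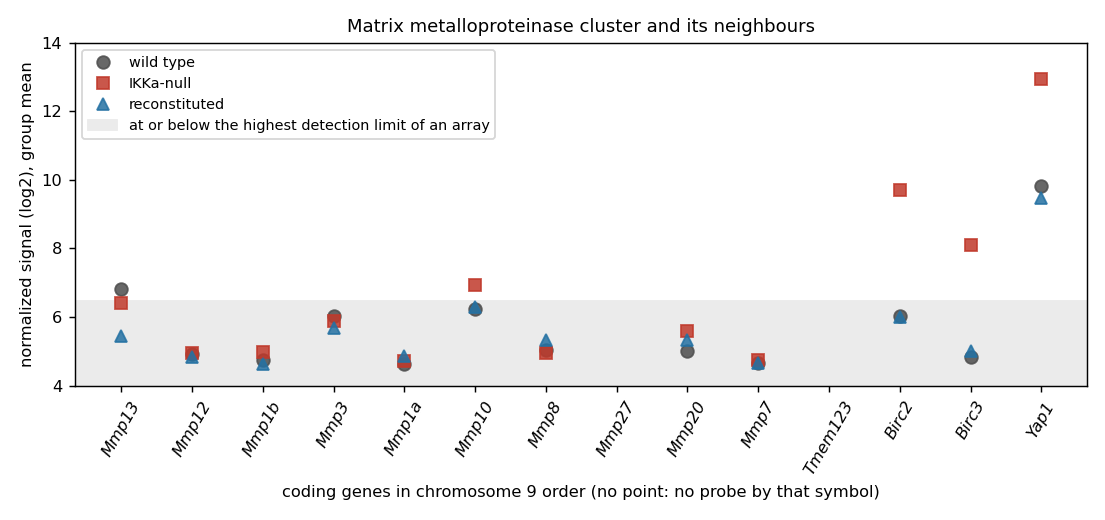
Mean normalized log2 signal of 2 arrays per group (vertical axis) for 14 coding genes in their order on chromosome 9, with the range at or below the highest detection limit of any array in grey. The metalloproteinase genes lie in or near the grey range in all groups, and Birc2, Birc3 and Yap1 lie far above their wild-type and reconstituted values in IKKa-null cells alone.

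Of the inhibitors, Timp3 was highest in IKKa-null cells. TIMP3 is held in the extracellular matrix and also inhibits ADAM and ADAMTS proteases. Its brighter probe gave a log2 signal of 10.65 and 10.34 in wild-type, 11.99 and 11.60 in IKKa-null, and 10.41 and 10.87 in reconstituted cells. Its dimmer probe gave 7.30 and 7.70, 8.74 and 8.41, and 7.42 and 6.79 in the same order. On both probes the IKKa-null arrays stood above all others, and the wild-type and reconstituted arrays overlapped.

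Timp3 rose 2.45-fold in IKKa-null against wild-type cells by the brighter probe (log2 change 1.30, SE 0.242, adjusted p = 0.00944) and 2.11-fold by the dimmer (1.07, SE 0.27, adjusted p = 0.0259). It fell 2.23-fold in reconstituted against IKKa-null cells by the brighter probe (log2 change -1.16, SE 0.242, adjusted p = 0.0241) and 2.77-fold by the dimmer (-1.47, SE 0.27, adjusted p = 0.0153). Reconstituted and wild-type cells differed by 0.14 (95% interval -0.43 to 0.71, adjusted p = 0.674) and by -0.40 (-1.04 to 0.24, adjusted p = 0.281). The first of these values was -0.02 with median scaling, or 0.11 relative to the median of all probes, against 0.22 in the reported fit. It turned sign without wild-type replicate 2 (-0.01) or reconstituted replicate 2 (-0.09). The rise by the brighter probe was kept in 12 of 14 alternatives, and lost when IKKa-null replicate 1 or when wild-type replicate 2 was left out. Its fall was kept in 10 of 14, and lost without either IKKa-null array, without reconstituted replicate 1 and with no filter on dim probes. By the dimmer probe the rise was kept in 9 of 14 alternatives, and lost with no filter and without any of the 4 wild-type and IKKa-null arrays in turn. Its fall was kept in 11 of 14, and lost without either IKKa-null array and without reconstituted replicate 2.

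Timp2, which inhibits metalloproteinases and also serves as the adaptor between MMP14 and pro-MMP2, gave a log2 signal of 12.10 and 12.15 in wild-type, 12.68 and 12.90 in IKKa-null, and 12.92 and 13.18 in reconstituted cells. No groups overlapped, in the order wild-type, IKKa-null, reconstituted, the same order as Mmp2 and Mmp14. Timp2 rose 1.9-fold in reconstituted against wild-type cells (log2 change 0.92, SE 0.184, adjusted p = 0.00933), a call kept in 13 of 14 alternatives and lost with median scaling. Its 1.59-fold rise in IKKa-null cells (log2 change 0.67, SE 0.184, adjusted p = 0.0344) was kept in 8 of 14, and lost with median scaling, with no filter and without any of the 4 wild-type and IKKa-null arrays in turn. Between reconstituted and IKKa-null cells the difference was 0.25, with a 95% interval of -0.18 to 0.69 (adjusted p = 0.408).

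Timp1, the secreted inhibitor known to be induced by growth factors and cytokines, gave 12.28 and 12.47 in wild-type, 12.41 and 12.82 in IKKa-null, and 12.66 and 12.64 in reconstituted cells on the log2 scale. The wild-type and IKKa-null arrays overlapped, and no comparison passed. The intervals of its 3 differences ran from -0.24 to 0.71, from -0.44 to 0.51 and from -0.20 to 0.75, so a change of 2-fold or more in Timp1 lay outside all of them.

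Adamts1, a secreted protease of aggrecan and versican that is induced early by serum and cytokines, was called in no comparison, and its replicates lay far apart in IKKa-null and reconstituted cells. Its brighter probe gave a log2 signal of 6.47 and 6.28 in wild-type, 6.99 and 5.84 in IKKa-null, and 7.58 and 6.16 in reconstituted cells. Replicate 1 was above replicate 2 in each group, by 0.19, 1.15 and 1.42, and the groups overlapped. The second tested probe was higher in replicate 1 by 0.25, 0.49 and 1.49, and the remaining probe was at background on all 6 arrays. Nfkbia, the NF-kB inhibitor that is itself induced by NF-kB, was likewise higher in replicate 1 of each group, at 9.12 against 7.78 in wild-type, 9.96 against 6.0 in IKKa-null and 10.59 against 5.70 in reconstituted cells; it was chosen after its values were seen, and its part in the spread of Adamts1 was not tested. Not every gene showed this order. Jun and Egr1 were lower in replicate 1 of wild-type cells, at 7.81 against 8.1 and at 9.65 against 9.97, and higher in replicate 1 of the other groups. The log2 changes of the brighter Adamts1 probe were 0.04, 0.46 and 0.50 in the 3 comparisons, with an SE of 0.516 and 95% intervals that include 0. Those of the other tested probe, at background on both wild-type arrays, were 0.87, 0.18 and 1.05, with an SE of 0.455. Its difference between IKKa-null and wild type passed when either reconstituted array was left out, with the same log2 change of 0.87, since these settings give the same fit here. In reconstituted against wild-type cells it passed with the replicate number as a block (1.05), with median scaling (1.16) and without reconstituted replicate 2 (1.80).

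**Figure D5:**
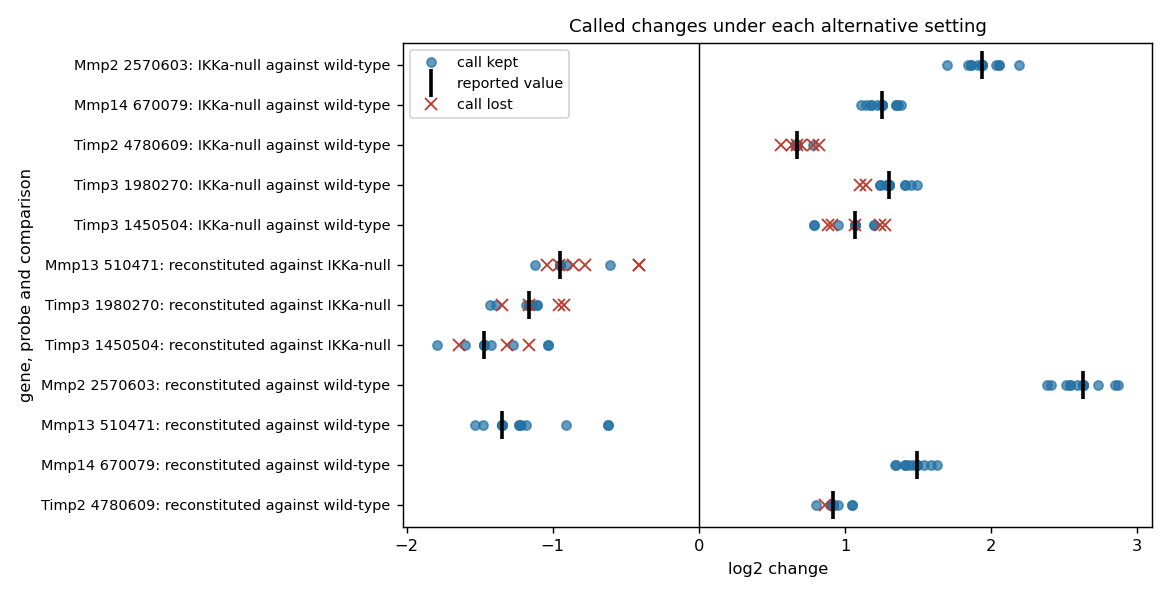
Log2 change (horizontal axis) of the 12 called member values under each alternative setting, with the reported value as a black bar, settings that kept the call as blue points and settings that lost it as red crosses. All 12 stay on their side of 0, and 5 of them, those of Mmp2 and Mmp14 against wild type and of Mmp13 in reconstituted against wild-type cells, have no cross.

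The wider protease family was mostly at background. Of 18 other MMP and TIMP genes listed, 16 were on the array and 3 were tested: Mmp11, Mmp16 and Mmp24. In IKKa-null against wild-type cells 2 of the 3 were called higher, beside 13.6% of all named genes. In reconstituted cells 1 was higher against wild type, beside 15.6%, and 1 lower against IKKa-null, beside 7.41%. Mmp11 was called in no comparison. Mmp16, a membrane-type enzyme, gave a log2 signal of 5.42 and 5.38 in wild-type, 6.86 and 7.21 in IKKa-null and 6.85 and 6.62 in reconstituted cells. Wild-type arrays were at background, and Mmp16 rose at least 1.69-fold in IKKa-null (log2 change 1.64, SE 0.195, adjusted p = 0.00184) and at least 1.37-fold in reconstituted cells (1.34, SE 0.195, adjusted p = 0.00334). Mmp24, also membrane-bound and known from the nervous system, gave 8.58 and 8.77 in wild-type, 9.84 and 10.27 in IKKa-null, and 9.21 and 9.20 in reconstituted cells. It rose 2.6-fold in IKKa-null cells (log2 change 1.38, SE 0.203, adjusted p = 0.00396), with no overlap between groups. Its difference between reconstituted and wild-type cells, 0.53, did not pass (adjusted p = 0.0806 in limma). It fell 1.8-fold in reconstituted against IKKa-null cells (-0.85, SE 0.203, adjusted p = 0.0382), a call kept in 6 of 14 alternatives and lost when any 1 of the 6 arrays was left out. Of 27 other ADAMTS and ADAM genes, 7 were tested and 0 were called between IKKa-null and wild type in limma, with 1 of the 7 at an unadjusted p under 0.05. Over all named genes 29.0% were called in that comparison. Adam19, a membrane-bound sheddase, rose at least 2.12-fold in reconstituted against wild-type cells (log2 change 1.57, adjusted p = 0.0092), a call lost without wild-type replicate 2. Its 2.31-fold rise against IKKa-null cells (1.20, adjusted p = 0.0471) was kept in 5 of 13 alternatives, and lost with the replicate number as a block (1.20, with adjusted p-values of 0.0251 to 0.175 over the alternatives), with median scaling, with no filter and when any array other than reconstituted replicate 1 was left out. Without background correction the log2 changes were smaller, 0.77 and 0.60 for Mmp16 and 0.81 for Adam19 against wild type, and passed.

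Among 29 genes known to activate, inhibit or take up matrix proteases, 15 were tested. In IKKa-null against wild-type cells 3 of the 15 were higher and none lower, where 29.0% of all named genes were called, 13.6% higher; the median was 0.29, beside -0.12 over all. Cav1, the coat protein of caveolae, rose 2.3-fold (adjusted p = 0.00284), the lysosomal protease Ctsb 1.99-fold (adjusted p = 0.013) and the tight junction protein Cldn1 at least 2.53-fold (adjusted p = 0.00309). Ctsb lost its call when wild-type replicate 1 or when IKKa-null replicate 2 was left out. In reconstituted against wild-type cells 6 were higher and none lower, where 36.9% of all named genes were called, 15.6% higher; the median was 0.39, beside -0.14 over all. Cldn1 rose at least 34.6-fold (adjusted p = 0.000126), and Thbs2, a matricellular protein that promotes uptake of MMP2, at least 2.62-fold (adjusted p = 0.000904). Thbs2 was above background on the reconstituted arrays only. It met the filter for testing through the group where it was higher, so its p-values are no separate evidence of that. Thbs1 and the integrin subunit Itgav also rose, at least 1.34-fold and 2.09-fold (adjusted p = 0.0166 and 0.0189). The call of Thbs1 was lost without either wild-type array, and that of Itgav without wild-type replicate 1 or reconstituted replicate 1. Against IKKa-null cells, reconstituted cells had 3 of the 15 higher and 1 lower, where 14.3% of all named genes were called, with a median of 0.07 beside -0.02 over all: Cldn1 rose 13.7-fold (adjusted p = 0.00159) and Thbs2 at least 3.18-fold (adjusted p = 0.00207), while Cav1 fell 2.64-fold (adjusted p = 0.00238). The log2 change of Cldn1 in this comparison, 3.78, was 4.42 and 3.13 with 1 or the other IKKa-null array left out, and against wild type in IKKa-null cells it was 2.21 and 3.50 in place of 2.86. Without background correction, smaller log2 changes passed for Cldn1 (1.59 in IKKa-null and 4.81 in reconstituted cells against wild type), Thbs1 (0.60) and Thbs2 (1.38 against wild type, 1.27 against IKKa-null). The endocytic receptor Lrp1 rose 1.69-fold (adjusted p = 0.0368), a call kept in 6 of 14 alternatives and lost when any 1 of the 6 arrays was left out.

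Of 21 transcription factors known to bind metalloproteinase promoters, 17 were tested. In IKKa-null against wild-type cells 2 rose and 2 fell, where 29.0% of all named genes were called, 13.6% higher and 15.4% lower. The median was 0.20, beside -0.12 over all. The 2 that rose encode subunits of AP-1: Fosb 2.8-fold (log2 change 1.48, adjusted p = 0.00254) and Fosl2 1.88-fold (0.91, adjusted p = 0.0152), the second lost with median scaling and without any of the 4 wild-type and IKKa-null arrays in turn. Jun, Junb, Jund, Fos and Fosl1, which also encode AP-1 subunits, were not called (adjusted p = 0.334, 0.795, 0.968, 0.522 and 0.111 in limma). The IKKa-null arrays lay apart for Jun (9.97 and 7.72), Junb (10.27 and 7.56) and Fos (8.14 and 5.62). The 2 that fell encode members of the NF-kB family: Relb at least 1.59-fold (-1.52, adjusted p = 0.00765) and Nfkb2 2.44-fold (-1.29, adjusted p = 0.0211). Rela, of the same family, was not called (adjusted p = 0.253 in limma). Relb was above background only on the wild-type arrays, and met the filter for testing through them. Its call was lost without IKKa-null replicate 2. That of Nfkb2 was lost without that array, without either wild-type array and with no filter. Without background correction the changes of Fosb (0.88) and Relb (-0.70) were smaller and passed. In reconstituted against wild-type cells, with 36.9% of all named genes called and a median of 0.32 in the list beside -0.14, Fosb (1.82-fold, adjusted p = 0.0139), Fosl2 (2.04-fold, adjusted p = 0.00785) and the ETS factor Etv5 (3.04-fold, adjusted p = 0.0049) were higher and Relb was lower (at least 1.37-fold, adjusted p = 0.0216). Median scaling ended the calls of Fosb, Fosl2 and Relb. That of Fosb was also lost without reconstituted replicate 1 or wild-type replicate 2, and that of Relb with no filter and without wild-type replicate 1 or reconstituted replicate 2. Reconstituted against IKKa-null cells had 2 of the 17 higher, with 14.3% of all named genes called and a median of 0.28 beside -0.02, Etv5 (2.99-fold, adjusted p = 0.0106) and Stat3 (1.83-fold, adjusted p = 0.0439), and none lower; Stat3 was kept in 6 of 14 alternatives and lost when any 1 of the 6 arrays was left out, and Etv5 was lost without either IKKa-null array. The log2 change of Etv5 without background correction was 0.90 in both comparisons, in place of 1.58 and 1.61.

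The matrix proteins that these enzymes cut moved in both directions. Of 22 listed, 18 were tested, and in IKKa-null against wild-type cells 5 were higher and 6 lower, where 13.6% of all named genes were called higher and 15.4% lower; the median was -0.27, beside -0.12 over all. The basement membrane genes Nid2 (6.75-fold), Col4a1 (4.28-fold) and Nid1 (4.08-fold) fell, with adjusted p = 0.00131, 0.000457 and 0.00064, and the matricellular Sparc rose at least 5.47-fold (adjusted p = 0.000151). In reconstituted against wild-type cells 7 were higher and 4 lower, where 15.6% of all named genes were called higher and 21.3% lower; the median was 0.55, beside -0.14 over all. Col4a1 fell at least 19.3-fold (adjusted p = 2.14e-05) and Col4a2 33.1-fold (adjusted p = 0.000154), while the small proteoglycan Dcn rose 11.5-fold (adjusted p = 0.00466) and Sparc at least 4.02-fold (adjusted p = 0.000272). The wild-type Dcn arrays lay apart, at 10.05 and 8.20, and its log2 change of 3.52 was 4.44 without wild-type replicate 1 and 2.59 without replicate 2. Against IKKa-null cells, reconstituted cells had 4 of the 18 higher and 2 lower, where 14.3% of all named genes were called, with a median of 0.44 beside -0.02: Dcn rose 21.4-fold (adjusted p = 0.00382) and Nid1 4.6-fold (adjusted p = 0.000635), and Col4a2 fell 12.4-fold (adjusted p = 0.000786) and Col4a1 at least 4.51-fold (adjusted p = 0.000131). Without background correction, smaller log2 changes passed for Nid2 (-2.07 in IKKa-null against wild-type cells), for Sparc (1.80 in the same comparison, 1.45 in reconstituted against wild type) and for both type IV collagen genes in the other comparisons (Col4a1 -3.78 and -1.95, Col4a2 -4.15 and -2.80). The RNA of Col4a1, Col4a2 and Nid2 was lower than in wild-type cells in both groups in which Mmp2 was higher. In the same groups the RNA of Sparc, Fn1, Vcan, Bgn and Tnc was called higher. The log2 changes in IKKa-null and reconstituted cells were 1.02 and 2.09 for Fn1 and 1.03 and 1.4 for Vcan, which was at background on the wild-type arrays. They were 0.91 and 1.39 for Bgn and 0.62 and 1.0 for Tnc. The RNA of Nid1 and Lamc1 was called lower in IKKa-null cells only, and that of Hspg2 in neither group. Nid1 differed by 0.18 in reconstituted against wild-type cells (adjusted p = 0.477 in limma). A link between Mmp2 and these transcripts was not tested.

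The tested markers of other cell types showed no single pattern over the groups, and neither did the members. Eng, the only endothelial marker of 6 above background, was at background on both wild-type arrays and rose at least 1.88-fold in IKKa-null (adjusted p = 0.00196) and at least 2.57-fold in reconstituted cells (adjusted p = 0.000765), while Pecam1, Cdh5, Kdr, Tek and Vwf were at background. The summed intensity of the endothelial list over background was 45.8 to 87.4 in wild-type, 146.5 to 250.5 in IKKa-null and 191.3 to 286.5 in reconstituted cells. Of 7 osteoblast and chondrocyte markers 2 were tested, and they went opposite ways. Sox9 was higher in the same groups (log2 changes 2.06 and 1.94, adjusted p = 0.00822 and 0.00818, both lost without wild-type replicate 2), and Sp7, Bglap, Ibsp, Alpl and Col2a1 were at background. Acan fell at least 1.28-fold in reconstituted against wild-type cells (adjusted p = 0.0322), a call kept in 5 of 13 alternatives and lost without any of the 4 arrays of these groups in turn, and differed by -0.48 between IKKa-null and wild type (adjusted p = 0.104). The sum of that list was 447 to 556.8 in wild-type, 1510 to 2314 in IKKa-null and 901.2 to 2393 in reconstituted cells. Krt14, the 1 epithelial marker of 5 on the array that was above background on 2 arrays or more, had its group means in the same order as Mmp13: it fell 3.62-fold in IKKa-null (adjusted p = 0.00081) and at least 3.29-fold in reconstituted cells (adjusted p = 0.000124), where it was at background, with Cdh1, Krt5, Krt8 and Krt18 at background. The epithelial sum was 270.8 to 290.3 in wild-type, 85.1 to 134.9 in IKKa-null and 39.6 to 58.7 in reconstituted cells. The macrophage and blood list had its highest sum in IKKa-null cells, 182.9 to 285.2 against 55.4 to 95.05 in wild-type and 111.9 to 173.3 in reconstituted cells. Of 8 markers on the array 6 were at background, Ptprc and Adgre1 among them. The brightest in IKKa-null cells were Cd14, at raw intensities of 206.5 and 241.4, and Lyz2, at 144.8 and 198.4. Lyz2 was above background on only 1 array. Cd14 (1.25 in IKKa-null against wild type, not called) was the only one tested. The smooth muscle sum was 3208 to 3880 in wild-type, 298.7 to 1012 in IKKa-null and 7011 to 9623 in reconstituted cells, set by Acta2 (7.58-fold lower in IKKa-null against wild type, adjusted p = 0.00616, with a log2 change of -2.11 and -3.73 in place of -2.92 when 1 or the other IKKa-null array was left out), with Myh11, Cnn1, Tagln and Des at background. The part of these cells or genes in the members' levels was not tested, and in bulk RNA a change in the number of cells of a type and a change in RNA per cell cannot be told apart.

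Over the 6 arrays, the genes most like each of the 4 members with the widest range were picked by Pearson correlation among 7406 named genes. The arrays fall into 3 groups, and such values are a description. For Mmp2 these were Car13 (r = 0.9967), Osbpl9 (0.9962) and Nnmt (0.9957). Vamp4 (0.9992), Igfbp4 (0.9986) and Cda (0.9974) were most like Mmp14. For Mmp13 they were Map2k4 (0.9985), Ski (0.9972) and Sdf4 (0.996), and for Timp3 they were Dcbld1 (0.9874), Sp100 (0.9841) and Tox4 (0.9829).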

How the data were processed

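Each deposited array file was exported from Illumina Inc. BeadStudio 1.5.0.34 with no normalization, per the file headers, and held 1 average bead intensity for each of 46120 targets. The deposited series matrix held intensity values that, compared with the array files, were quantile-normalized on a linear scale; its making is otherwise unstated. Names came from the matrix annotation, to which 46116 targets were matched by their 6 values. The RefSeq gene table (GRCm38.p6) changed 0 symbols. No build is named in the files, so its coordinates were used only for gene order and upstream windows.

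Background was corrected with nec of limma 3.58.1 (R 4.3.3) using 394 background probes (352 immune-receptor segments and 42 spike or non-mouse targets) and an offset of 16, followed by quantile normalization and log2. A probe was above background where under 1% of background probes reached its signal. Those above background on at least 2 of 6 arrays were tested. A probe at background elsewhere could thus be tested through the 1 group where it was bright. Group means were fitted to all 6 arrays (3 residual degrees of freedom, prior 3.97), each comparison two-sided. The fit was tested on simulated data. Median intensities were 111.1 to 123.1 and background medians 100.8 to 114.45; the number of arrays limits the precision. Replicates correlated at 0.968 to 0.9793 across probes, which are not independent.

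The members and lists were chosen with earlier results of these data known. Genes named were all members, up to 4 called genes per wider list and comparison with the largest change, 3 genes most like each of 4 members, and the markers above background on at least 2 arrays. Alternatives were 3 other normalizations, another offset, the series matrix, 2 filters, the replicate block and leaving out each array. They overlap: no background correction and the series matrix called the same number of probes in each comparison. Leaving out either array of the group not compared gave the same fit.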

Additional observations from a re-analysis of the deposited data

How the results depend on the processing

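Of 408 member values under 14 alternatives, 356 kept their direction and side of the threshold, 27 lost a call, 10 gained one and 15 turned sign, all 15 uncalled. Of 12 called member values, 5 were kept throughout. Those that turned sign when 1 array was left out ranged as follows. The brighter Adamts1 probe ran from -0.53 to 0.61 in IKKa-null against wild type, from -0.25 to 1.17 in reconstituted against IKKa-null and between -0.21 and 1.21 for reconstituted against wild-type cells, and the dimmer from -0.56 to 0.93 in reconstituted against IKKa-null. Timp1 ran from -0.17 to 0.25 in reconstituted against IKKa-null, and in reconstituted against wild type Mmp10 ran from -0.45 to 0.54 and Timp3 (brighter probe) from -0.09 to 0.37. With median scaling Mmp14 gave -0.01 and Timp1 -0.19 in reconstituted against IKKa-null, and Timp3 -0.02 in reconstituted against wild type. Relative to the median of all probes these were 0.16, -0.02 and 0.11. For the other values the cause was not tested.

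Median scaling moved the median of all probes from -0.07 to 0.04, from -0.01 to -0.17 and from -0.08 to -0.13 in the 3 comparisons; relative to it Mmp2 changed by 2.01 in IKKa-null against wild type under both. It lowered the probes called over the array from 3373 to 1894 (70.4% higher, against 51.7%), from 1555 to 924 (37.9% against 48.4%) and from 4240 to 2361. Leaving out 1 array at a time, which leaves its group with a lone array assumed to vary like the others, gave 1485 to 3495, 545 to 1265 and 2074 to 3746 probes. The member genes called then ranged from 2 to 5 in IKKa-null against wild type, from 0 to 2 in reconstituted against IKKa-null, and stayed at 4 in reconstituted against wild type. The reconstituted against IKKa-null count was 1 with median scaling, with no filter, and with only probes above background on all 6 arrays. The reported fit did not pair the arrays by replicate number. Deviations of same-numbered arrays from their group means correlated at 0.297, 0.369 and 0.0507, all positive. Whether arrays of the same number share a batch was not tested. With the replicate block 3610, 1668 and 4517 probes were called, against 3373, 1555 and 4240 in the reported fit. The member counts stayed at 4, 2 and 4, and the dimmer Adamts1 probe passed in reconstituted against wild type (1.05). With no background correction, 30 of 70 called values of named genes were smaller by over 1.5 times, and all 30 still passed. Signal over background limits Mmp3, Mmp9, Mmp10, Mmp13 and Adamts1.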
